A study of Caenorhabditis elegans with 22 samples.

Results

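Serotonin was compared with vehicle in adult Caenorhabditis elegans that carry the allele ser-7(vq2), by RNA sequencing of whole animals. All 6 libraries of that genotype were used out of 22 in the series, namely 3 from animals given 5 mM serotonin and 3 from animals given DMSO. The labels give both groups a batch tag (r1, r2 and r3), and each tag holds 1 library of each treatment. Every gene of the deposited table was considered, and 16431 of 19598 genes had enough reads to be tested.

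All animals were reared from synchronised larvae in liquid medium with carbenicillin and fungizone on X-ray-killed OP50 bacteria, and were sterilised with 0.12 mM FUDR, a blocker of DNA synthesis, from the L4 stage. The compound was added on day 1 of adulthood and RNA was collected 72 h later, on day 4. Serotonin was dissolved in water, whereas the controls are labelled DMSO (kept under 0.3%), so the compound and its solvent cannot be told apart. The same contrast in the wild-type strain N2, with 3 serotonin and 5 DMSO libraries, is set beside the mutant because it shares the treatment and the solvent difference. Whether the libraries of a group came from separate cultures is not in the labels, and p-values therefore reflect only how these libraries vary.

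Serotonin is a transmitter that in C. elegans slows movement on food, stimulates egg laying and drives pharyngeal pumping. SER-7 is a serotonin receptor that couples to a stimulatory G protein and raises cyclic AMP, and it is known for its role in pharyngeal pumping and in the egg-laying circuit. Other serotonin receptors of the worm are SER-1, SER-4, SER-5 and the chloride channel MOD-1, each with its own set of neurons and muscles.

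The targeted transcript followed the labels. The ser-7 gene (chromosome X, 2673572 to 2682384) had 2 reads in all over the 3 ser-7(vq2) DMSO libraries and 0 over the 3 serotonin libraries, where a count of 0 allows up to 0.0303 CPM (the reads of a gene scaled to a fixed library size). N2 animals had 438 reads with DMSO and 131 with serotonin. Totals lay between 31651301 and 38357666 reads in the mutant DMSO libraries and between 27717696 and 38737731 in the mutant serotonin libraries. Floors cover counting error only. In N2 the DMSO replicates 2 and 5, and likewise 3 and 6, were closer to each other than other N2 DMSO pairs (chi-square per degree of freedom of 4.935 and 3.858, against 20.54 to 44.44). They differed beyond sampling noise and were kept as separate libraries, but whether they are repeat libraries of the same material was not tested. If they are, the 5 N2 controls stand for fewer samples and the N2 and interaction p-values are too small.

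In ser-7(vq2) animals no gene passed the threshold after serotonin. The quasi-likelihood test of edgeR with Benjamini-Hochberg adjustment called 0 of 16431 genes (0.0%) at an adjusted p under 0.05, and the smallest adjusted p was 0.416. At an unadjusted p under 0.05 there were 643 genes (3.91%), of which 413 were higher (2.51%) and 230 lower (1.4%). DESeq2 also called 0 genes, with 654 at an unadjusted p under 0.05. The same edgeR fit called 6102 genes in N2 (37.1%), with 3346 raised (20.4%) and 2756 lowered (16.8%).

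The 6 mutant libraries differed more by batch tag than by treatment. The first principal component took 40.3% of the variance and set both r3 libraries apart from those of r1 and r2. The second component took 22.9%, and on it the 3 DMSO libraries (scores of 30.89, 8.556 and 13.68) all lay above the 3 serotonin libraries (scores of -14.19, -14.27 and -24.68). The treatments were therefore separated along a component with a smaller share of the variance than the tags.

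**Figure D1:**
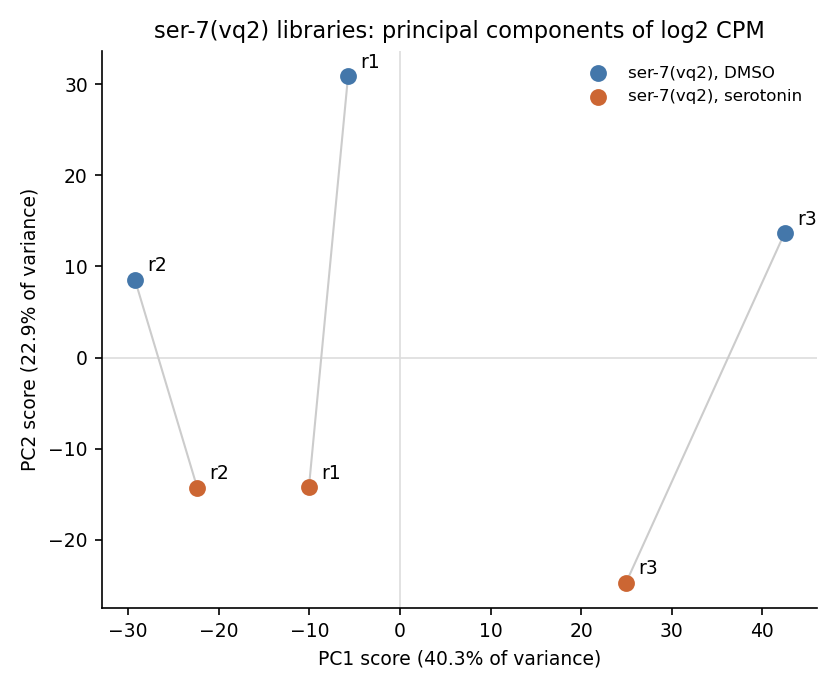
Principal components of log2 CPM over the 6 ser-7(vq2) libraries, with PC1 (40.3% of the variance) on the horizontal and PC2 (22.9%) on the vertical axis. Each point is 1 library, blue for DMSO and orange for serotonin, and grey lines join libraries with the same batch tag; the r3 pair sits to the right, and within each tag the serotonin library lies below the DMSO library.

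With the tag as a block the count depended on which libraries shared the fit. A fit over all groups with the tag as a block called 0 genes, with a smallest adjusted p of 0.0543 and 1049 genes at an unadjusted p under 0.05. The tags r4, r5 and r6 hold 1 N2 DMSO library each, so every fit with the tag as a block over N2 libraries in effect leaves those 3 out and keeps N2 DMSO replicates 2 and 3. A blocked fit of the 6 mutant libraries alone, called the paired fit here, called 89 of 15488 genes (0.575%), of which 36 rose (0.232%) and 53 fell (0.342%). It had 2208 genes at an unadjusted p under 0.05 by edgeR. Leaving out both libraries of 1 tag in that fit, which leaves 4 libraries, gave 44 genes without r1, 84 without r2 and 708 without r3. Of the 89 genes, 36 were called again without r1, 38 without r2 and 89 without r3. These fits share their libraries with the fit that chose the 89 genes, so this overlap is in part built in. With 4 libraries the spread is poorly estimated, and the counts are unstable.

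The precision of the mutant comparison limits how large an undetected response could be. The 95% interval of the log2 fold change reached to a median of 0.43 on either side of the estimate, and lay wholly inside a 2-fold change in either direction for 12240 genes (74.5%). Among the 10602 genes whose mean log2 CPM was 2 or more, this median was 0.31 and 9954 genes (93.9%) had an interval inside that range. In this group the standard deviation of the log2 fold changes was 0.18 in ser-7(vq2) against 0.5 in N2. A fold change past 2-fold was seen for 16 of these genes in the mutant and for 384 in N2.

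The response of the mutant differed from that of N2 for 2565 genes (15.6%), by a test of the interaction that shares no library between its 2 differences. The interaction is the mutant log2 fold change minus the N2 log2 fold change, and it was positive for 928 of these genes (5.65%) and negative for 1637 (9.96%). Its median over all tested genes was 0.11, since the median log2 fold change was -0.12 in N2 and -0.011 in the mutant. In the counts of gene lists below, a higher or lower interaction is one past the threshold. Of the 2565 genes, 2494 (97.2%) had also passed the threshold in N2. The N2 test and the interaction use the same N2 libraries, so this overlap is in part built in. The number of genes past the threshold for the interaction was 1583 with the near-duplicate N2 controls summed. Among single libraries left out it ran from 1203 without N2 serotonin replicate 3 to 4490 without N2 serotonin replicate 1. It was 1644 without ser-7(vq2) serotonin replicate 1. Leaving out both mutant libraries of 1 tag gave 584, 1459 and 841 genes for r1, r2 and r3.

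The genes that serotonin moved in N2 had fold changes near 0 in the mutant. The 3346 genes raised in N2 had a median log2 fold change of 0.49 there and of -0.02 in ser-7(vq2), and 1413 of them (42.2%) were above 0 in the mutant. The response differed for 1624 of them (48.5%), in every case against the N2 direction. The 2756 genes lowered in N2 had a median of -0.75 there and of -0.06 in the mutant. Of these, 1722 (62.5%) were below 0 in the mutant and 870 (31.6%) had a response that differed, again all against the N2 direction. The N2 libraries that chose both sets also enter the interaction, so its direction in them was largely set by the choice.

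The larger N2 changes could be bounded in the mutant. Of 83 genes at this level that rose by more than 2-fold in N2, 75 had a mutant interval that excluded a 2-fold rise. Of 285 that fell by more than 2-fold in N2, 245 had a mutant interval that excluded a 2-fold fall. Across the 10602 genes, which are not independent replicates, the Pearson correlation of both responses was 0.102.

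**Figure D2:**
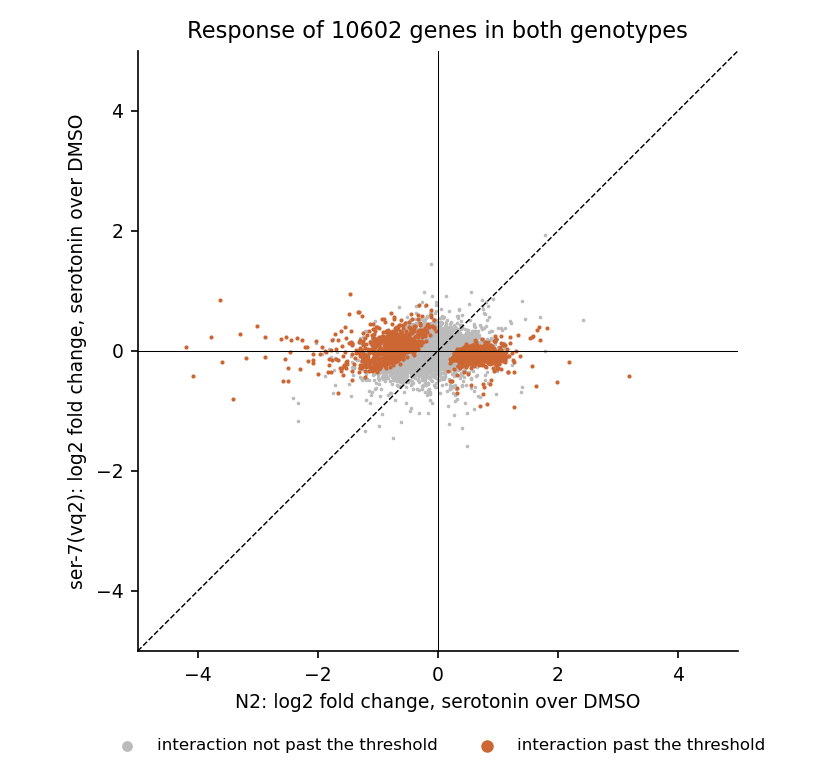
Log2 fold change of serotonin over DMSO in N2 (horizontal) and in ser-7(vq2) (vertical) for the 10602 genes whose log2 CPM averaged 2 or more over the 6 mutant libraries, on equal axes; orange points passed the threshold for the interaction and the dashed line marks equal responses. The cloud is spread along the horizontal axis (standard deviation 0.5) more than along the vertical one (0.18).

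Among serotonin receptor and amine-handling genes no change passed the threshold in the mutant, which does not show that levels were equal. Of 6 receptor genes tested, ser-7 among them, 0 passed the threshold in ser-7(vq2) and 4 fell in N2. The receptor gene ser-1 had 3.0, 2.46 and 3.13 CPM with DMSO and 2.2, 2.84 and 3.0 CPM with serotonin (log2 fold change -0.1 ± 0.21, SE). The receptor gene ser-4 went from 3.83, 4.28 and 5.02 CPM to 4.19, 4.28 and 4.23 CPM. The groups overlapped for both genes, whereas in N2 the log2 fold changes were -0.74 for ser-1 and -0.61 for ser-4, with adjusted p of 0.0061 and 0.00983 by edgeR.

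Of 15 genes for amine synthesis, packaging and uptake 0 passed the threshold in the mutant. In N2 1 rose and 4 fell, and the interaction was higher for 2 (amx-2, a monoamine oxidase, and gfrp-1) and lower for 1 (tdc-1, the tyrosine decarboxylase), against 5.65% and 9.96% of all genes. With RLE size factors it was higher for 0 and lower for 1. With library totals as the scaling it was higher for 1 and lower for 1. The mutant log2 fold changes were 0.59 ± 0.33 (SE) for tph-1, the tryptophan hydroxylase that makes the serotonin precursor, 0.07 ± 0.19 for mod-5, the serotonin reuptake transporter, 0.16 ± 0.22 for cat-1, the vesicular monoamine transporter, and -0.14 ± 0.22 for bas-1, the decarboxylase that completes serotonin. In N2 mod-5 and cat-1 fell, by 0.52 and 0.58 on the log2 scale. The interaction did not pass the threshold for ser-1, ser-4, mod-5 or cat-1 (adjusted p from edgeR of 0.134, 0.146, 0.116 and 0.0999), so a difference between genotypes was not shown for these genes.

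Germline genes, which rose with serotonin in N2, stayed near their vehicle level in the mutant. In the oocyte and eggshell list 31 of 35 genes rose in N2 (median log2 fold change 0.74), while 0 passed the threshold in ser-7(vq2) (median -0.06), and the interaction was lower for 27. All 35 mutant intervals lay inside a 2-fold change. Of all tested genes 20.4% rose and 16.8% fell in N2, and the interaction was higher for 5.65% and lower for 9.96%. These shares stand beside the counts of this and later lists. In whole animals a change in the number of cells of a type and a change in RNA per cell cannot be told apart.

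The gene cpg-3 encodes a chondroitin proteoglycan of the egg. It had 274, 252 and 343 CPM with DMSO and 247, 280 and 295 CPM with serotonin in ser-7(vq2), which overlap. In N2 it went from 342 to 433 CPM with DMSO (median 402, n = 5) to 709, 917 and 1370 CPM with serotonin, with no overlap. The log2 fold change was -0.08 ± 0.19 (SE) in the mutant and 1.38 ± 0.16 in N2, and the interaction was -1.45 ± 0.25 (adjusted p from edgeR 0.00361). The RNA-binding protein gene oma-2, needed for oocyte maturation, showed the same order, with 324, 278 and 345 CPM against 291, 304 and 275 CPM in the mutant and 570, 702 and 904 CPM in N2 with serotonin. Its interaction was -0.95 ± 0.18.

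Other germline lists were also raised in N2 and near 0 in the mutant. Of 41 meiosis genes 38 rose in N2 and the interaction was lower for 30, among them zim-2 and him-8, zinc-finger proteins of chromosome pairing centres (-1.04 and -0.98). Of 42 germ granule and germline regulator genes 33 rose in N2 and the interaction was lower for 19, among them gld-3, an RNA-binding regulator of germ cell fate (-0.99), and mut-2, a nucleotidyltransferase of RNA silencing (-0.97). Of 55 replication and cell cycle genes 40 rose in N2 and 19 had a lower interaction, and of 41 DNA damage genes 36 rose and 25 had a lower interaction. The mutant medians of these 4 lists were -0.06, 0.02, 0.04 and -0.00, with 0 genes past the threshold in each.

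Many proteasome, yolk and early embryo genes rose in N2 as well. Of 31 proteasome subunits 28 rose in N2 (median 0.39), the mutant median was 0.02, and the interaction was lower for 9. All 4 yolk genes rose in N2, and the interaction was lower for 1 of them, the yolk receptor gene rme-2, and higher for 0. In the mutant rme-2 had 296, 281 and 363 CPM with DMSO and 284, 356 and 328 CPM with serotonin. With DMSO the summed level of the 4 genes was 801, 719 and 1300 CPM in the mutant, below the 1470 to 2160 CPM of N2. The early embryo list, of which 18 of 30 genes rose and 3 fell in N2, had a mutant median of 0.26 against -0.01 over all tested genes, with tag medians of 0.34, 0.19 and 0.22. The interaction was lower for 7 of the 30 genes and higher for 1. In the mutant 26 of the 30 genes were above 0, against 7802 of all 16431 tested genes. Of the 30, 4 lay wholly above the DMSO libraries and 1 wholly below, where 5.31% and 4.98% of all genes did. At an unadjusted p under 0.05, 1 was higher and 1 lower, against 2.51% and 1.4% of all genes. Of the 28 genes of this list in the paired fit 1 rose (sdz-5).

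Many muscle genes fell in N2, and none passed the threshold in the mutant. Of 46 body wall muscle genes 32 fell in N2 (median log2 fold change -0.54), 0 passed the threshold in ser-7(vq2) (median -0.03), and the interaction was higher for 13. The gene unc-87, which encodes a calponin-like protein of thin filaments, had 285, 264 and 308 CPM with DMSO and 248, 266 and 267 CPM with serotonin in the mutant. In N2 its level went from between 256 and 303 CPM to 120, 143 and 169 CPM, and the interaction was 0.82 ± 0.17 (SE; adjusted p from edgeR 0.00585). The troponin T gene mup-2 had an interaction of 0.91 ± 0.21.

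The pharynx, where SER-7 is known to act, showed a contrast of the same kind. Of 17 pharyngeal muscle genes 11 fell in N2 (median -0.84) and 7 had a higher interaction, with a mutant median of -0.04. The pharyngeal myosin heavy chain gene myo-2 had 28.7, 26.6 and 47.2 CPM with DMSO and 61.5, 42.7 and 56.7 CPM with serotonin in ser-7(vq2), a log2 fold change of 0.65 ± 0.27 (SE) that did not pass the threshold. In N2 it had between 54.3 and 79.0 CPM with DMSO and 24.1, 27.1 and 23.9 CPM with serotonin. Its mutant DMSO libraries thus lay below those of N2, and the interaction was 1.99 ± 0.37 (adjusted p from edgeR 0.0053).

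Among 8 pharyngeal gland phat genes 4 fell in N2 and the same number had a higher interaction. For phat-5 the mutant levels were 3.4, 2.11 and 7.27 CPM with DMSO and 3.93, 1.86 and 4.09 CPM with serotonin, against 0.307, 0.54 and 0.396 CPM in N2 with serotonin. The highest mutant DMSO value was in the r3 library.

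Neuropeptide genes fell in N2 and had mutant fold changes near 0. Of 30 genes for FMRFamide-like peptides 26 fell in N2 (median -0.68), 0 passed the threshold in ser-7(vq2) (median -0.06, range -0.33 to 0.16), and 10 had a higher interaction. The gene flp-10 had 36.8, 35.4 and 35.8 CPM with DMSO and 33.5, 32.2 and 38.0 CPM with serotonin in the mutant, and 15.0, 14.6 and 15.9 CPM with serotonin in N2. Of 64 other neuropeptide genes 44 fell in N2 and 16 had a higher interaction, with nlp-14 at 0.98 ± 0.16 (SE) and nlp-2 at 1.61 ± 0.31. The secretory chaperone gene sbt-1, which matures the peptide convertase, had an interaction of 0.62 ± 0.13, and a fit of the 4 compared groups with the tag as a block gave an adjusted p of 0.0517 from edgeR.

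Genes of classical transmission had a share of higher interactions near that of all genes. Of 36 synaptic genes 17 fell in N2 (median -0.49), the mutant median was -0.05, and 3 had a higher interaction against 5.65% of all genes, among them cha-1, the choline acetyltransferase (1.28 ± 0.35, SE), and eat-4, the vesicular glutamate transporter (1.18 ± 0.34). The call of cha-1 ended without N2 serotonin replicate 3 (adjusted p from edgeR 0.0596), and that of eat-4 without any of 4 single libraries (adjusted p from 0.0542 to 0.0701).

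**Figure D3:**
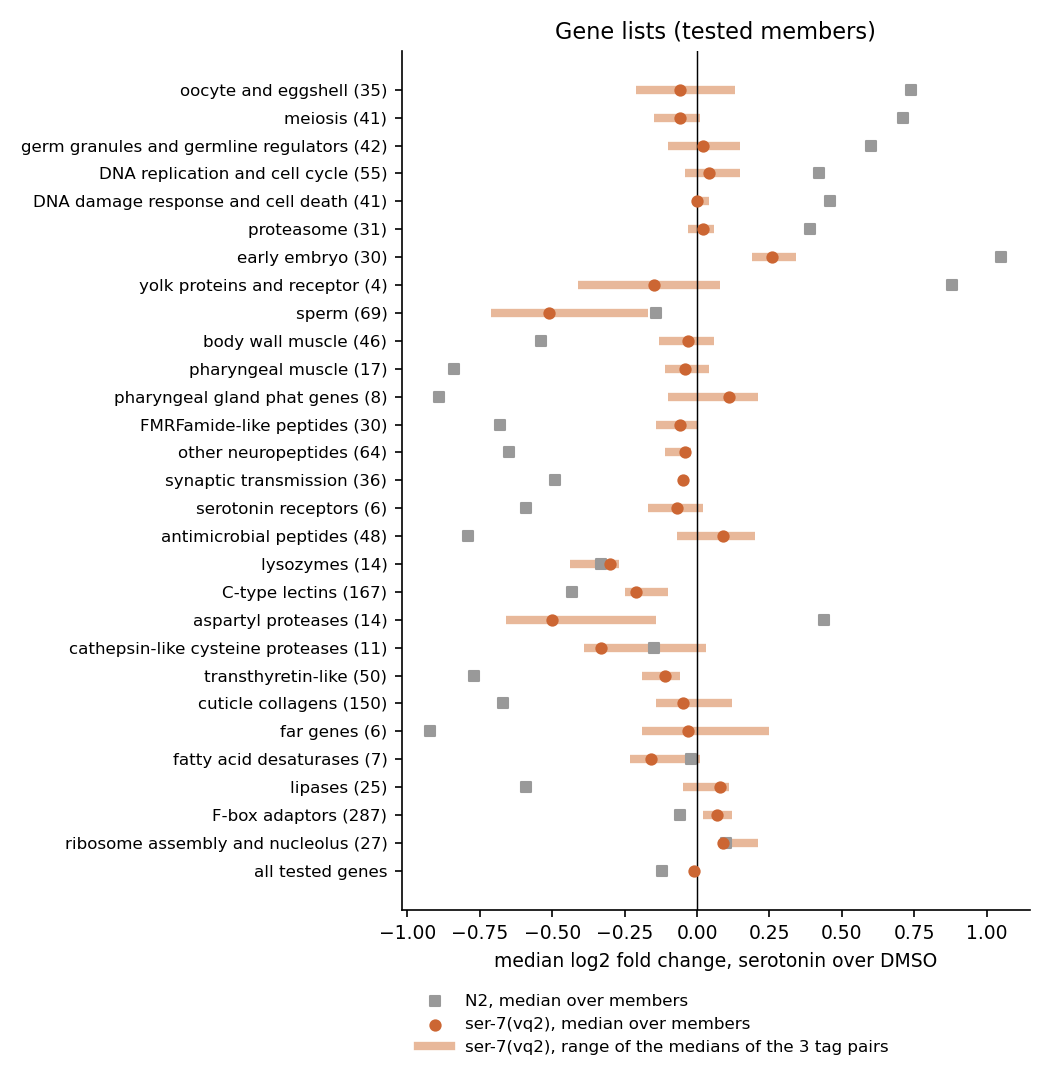
Median log2 fold change of serotonin over DMSO for 28 gene lists and for all tested genes, with the number of tested members in brackets; grey squares are N2, orange circles ser-7(vq2), and pale bars the range of the medians of the 3 mutant tag pairs. The N2 squares run from -0.92 (far genes) to 1.05 (early embryo), and the mutant circles from -0.51 (sperm) to 0.26 (early embryo).

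Secreted defence and digestion genes divided into groups. Antimicrobial peptide genes fell in N2 for 23 of 48 tested (median -0.79), had a mutant median of 0.09, and had a higher interaction for 13. The caenacin gene cnc-2 had 48.8, 40.7 and 54.0 CPM with DMSO and 58.1, 50.3 and 81.3 CPM with serotonin in the mutant, and 16.2, 15.3 and 18.4 CPM with serotonin in N2. Its log2 fold change was 0.4 ± 0.17 (SE) in the mutant and -1.55 ± 0.17 in N2, with an interaction of 1.95 ± 0.24 (adjusted p from edgeR 0.000377). A further caenacin gene, cnc-7, rose in the paired mutant fit, by 0.43, 0.56 and 0.75 on the log2 scale within the 3 tags, and fell in N2.

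The invertebrate-type lysozyme genes, whose products cut bacterial cell walls, held some of the widest differences between genotypes. The gene ilys-3 had 42.9, 26.9 and 61.0 CPM with DMSO and 46.3, 34.1 and 55.9 CPM with serotonin in ser-7(vq2), and 1.56, 0.54 and 2.7 CPM with serotonin in N2. Its interaction was 4.26 ± 0.6 (SE; adjusted p from edgeR 0.00232). The neighbouring gene ilys-2 had an interaction of 3.4 ± 0.79. The gene ilys-5 moved the other way, with an interaction of -2.21 ± 0.57, since it rose in N2 to 449, 626 and 1210 CPM and was at 123, 72.8 and 153 CPM with serotonin in the mutant. That call ended without N2 serotonin replicate 3 (adjusted p from edgeR 0.0631).

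Of 14 genes tested for aspartyl proteases, enzymes of protein digestion, the interaction passed the threshold as lower for 5 and as higher for 0. Over all genes these shares were 9.96% and 5.65%. The gene asp-12 had 24.1, 22.1 and 23.0 CPM with DMSO and 17.1, 17.1 and 17.8 CPM with serotonin in the mutant, which do not overlap. The fitted log2 fold change of -0.41 ± 0.49 (SE) did not pass the threshold. That SE uses a spread estimated over all 22 libraries, N2 serotonin among them, and does not describe the mutant libraries alone. In N2 asp-12 went from between 19.8 and 23.3 CPM to 50.1, 133 and 408 CPM, and the interaction was -3.59 ± 0.66 (adjusted p from edgeR 0.0053). In a fit of the 4 compared groups with the tag as a block the adjusted p of the interaction was 0.0796. The call for asp-10 (interaction -2.2) ended without any of 7 single libraries, with an adjusted p from 0.0519 to 0.133, the highest without N2 serotonin replicate 3.

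Other genes that rose in N2 stayed near vehicle level in the mutant. The gene dod-24, which has a CUB-like domain and lies downstream of DAF-16, had 21.4, 22.7 and 15.5 CPM with DMSO and 18.4, 19.9 and 13.9 CPM with serotonin, against 127, 189 and 66.6 CPM in N2 with serotonin. The exporter gene pgp-1 had an interaction of -2.5 ± 0.51 (SE), and the cytochrome P450 gene cyp-35C1 one of -1.96 ± 0.43. In the mutant cyp-35C1 had 4.05, 3.91 and 2.15 CPM with DMSO and 3.78, 3.79 and 3.8 CPM with serotonin.

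Among secreted and surface genes that fell in N2, 38 of 50 transthyretin-like genes fell there and 22 had a higher interaction. The gene ttr-17 had 124, 117 and 121 CPM with DMSO and 120, 119 and 145 CPM with serotonin in the mutant, and 26.2, 28.1 and 30.7 CPM with serotonin in N2. Of 150 cuticle collagen genes 46 fell in N2 and 14 had a higher interaction, against 16.8% and 5.65% of all genes. Their mutant median was -0.05. The paired mutant fit called 3 of 136 collagen genes, all lower, against 0.575% of all genes in that fit.

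**Figure D4:**
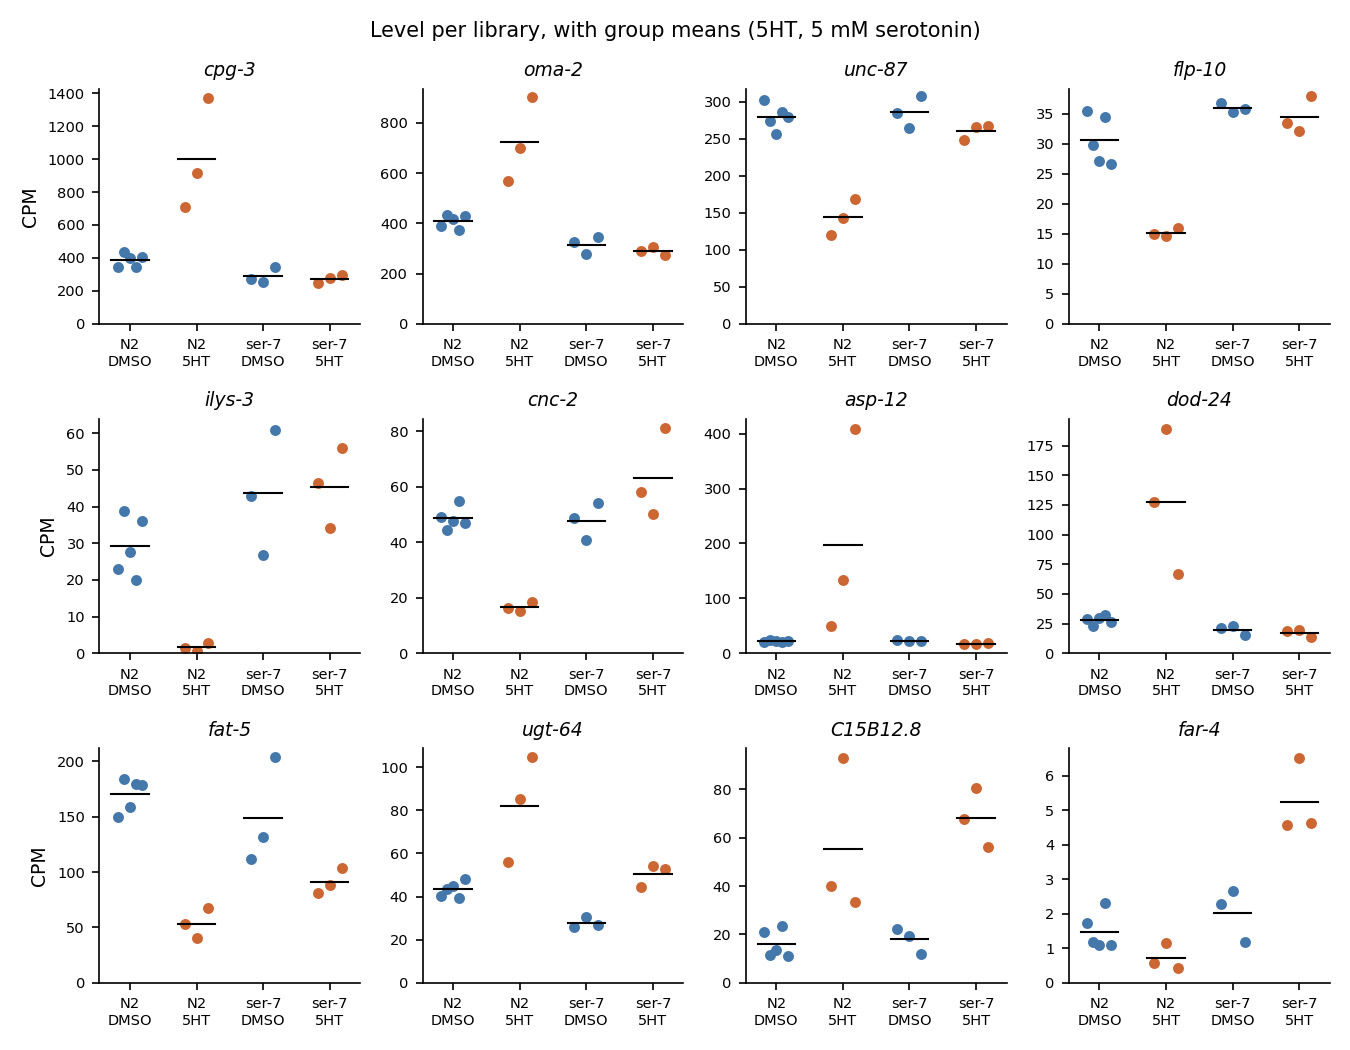
Level per library (CPM on linear axes from 0) of 12 genes in N2 and ser-7(vq2) with DMSO (blue) or serotonin (orange, 5HT); bars are group means. For cpg-3, oma-2, unc-87, flp-10, ilys-3, cnc-2, asp-12 and dod-24 the N2 groups are apart and the mutant groups lie close, while fat-5, ugt-64 and C15B12.8 differ in the same direction in both genotypes and far-4 in opposite directions.

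Among 7 fatty acid desaturase genes, 1 differed in the paired mutant fit. The gene fat-5 (chromosome V, 17725004 to 17726818) encodes the desaturase that acts on palmitic acid. It had 112, 132 and 204 CPM with DMSO and 81.3, 88.4 and 104 CPM with serotonin in ser-7(vq2), with no overlap between the groups. Its log2 fold change was -0.71 ± 0.19 (SE; unadjusted p 0.00135, adjusted p 0.943 by edgeR), and in the paired fit the adjusted p was 0.0271. In N2 it fell by 1.67 on the log2 scale, to 52.8, 40.1 and 67.8 CPM. The interaction was 0.96 ± 0.26 (adjusted p from edgeR 0.0175), so the mutant difference was smaller than the N2 one.

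The related desaturase genes fat-6 and fat-7 had log2 fold changes of -0.09 ± 0.1 and -0.16 ± 0.31 (SE) in the mutant. The gene dgat-2, for a diacylglycerol acyltransferase that makes triglyceride, had 40.6, 40.2 and 54.3 CPM with DMSO and 31.7, 34.5 and 33.2 CPM with serotonin, a fitted -0.44 ± 0.16 that did not pass the threshold. In N2 dgat-2 fell by 0.92 on the log2 scale, and the interaction of 0.48 ± 0.22 did not pass either (adjusted p from edgeR 0.145). The lipase genes lipl-4 and atgl-1 had mutant log2 fold changes of -0.68 ± 0.31 and 0.09 ± 0.11, the acyl-CoA synthetase gene acs-2 had -0.08 ± 0.44, and the lipid droplet gene dhs-3 had -0.32 ± 0.26.

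Among 24 genes of fatty acid synthesis and elongation the interaction was higher for 5 and lower for 1, against 5.65% and 9.96% of all genes. Its median over the 24 was -0.27, against 0.11 over all tested genes, so the list as a whole leaned the other way. With RLE size factors or with library totals as the scaling it was higher for 3. The gene pod-2, for acetyl-CoA carboxylase, had 235, 281 and 315 CPM with DMSO and 488, 363 and 378 CPM with serotonin in the mutant, a log2 fold change of 0.56 ± 0.14 (SE; adjusted p from edgeR 0.904). N2 had between 446 and 502 CPM with DMSO, so the mutant serotonin libraries lay nearer to the N2 controls than the mutant controls did. The interaction was 0.68 ± 0.18 (adjusted p 0.0181) and ended without any of 3 single libraries (adjusted p from 0.0535 to 0.0664, the highest without ser-7(vq2) serotonin replicate 1), and also with the tag as a block in the 4 compared groups (0.0701). The fatty acid synthase gene fasn-1 had an interaction of 0.61 ± 0.16.

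Of 6 genes for secreted fatty acid and retinol binding proteins 5 fell in N2, and 4 had a higher interaction. The secreted protein gene far-6 had 520, 502 and 569 CPM with DMSO and 416, 457 and 495 CPM with serotonin in ser-7(vq2), and 130, 177 and 202 CPM with serotonin in N2 (interaction 1.17 ± 0.23, SE). The lipid-binding protein genes lbp-2 and lbp-3 had interactions of 0.98 ± 0.22 and 0.96 ± 0.22. The gene far-4 had 2.27, 2.65 and 1.17 CPM with DMSO and 4.57, 6.5 and 4.63 CPM with serotonin in the mutant, with no overlap. It rose in the paired fit (log2 fold change 1.38, adjusted p from edgeR 0.0271) and fell in N2, and the interaction was 2.41 ± 0.55.

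The genes with the smallest p-values in the mutant did not pass the threshold and are given as candidates. Of the 12 higher ones, ugt-64 (chromosome V, 3503080 to 3506352), a UDP-glucuronosyltransferase of the kind that conjugates foreign compounds, had the smallest. Its levels were 25.9, 30.7 and 27.0 CPM with DMSO and 44.4, 54.2 and 52.8 CPM with serotonin. The groups did not overlap, and serotonin was higher in 3 of 3 tags. The log2 fold change was 0.86 ± 0.16 (SE; unadjusted p 2.53e-05, adjusted p 0.416 by edgeR), the blocked fit over all groups gave an adjusted p of 0.0543 and the paired fit one of 0.00322. In N2 it rose by 0.92 ± 0.14, and the interaction was -0.06 ± 0.21.

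The gene C15B12.8 (chromosome X, 6474264 to 6476645) had the largest difference among these 12. It had 22.2, 19.4 and 12.1 CPM with DMSO and 67.9, 80.5 and 56.2 CPM with serotonin, a log2 fold change of 1.93 ± 0.45 (SE; adjusted p from edgeR 0.904), and the smallest adjusted p of the paired fit, 0.000425. In N2 the log2 fold change was 1.79 ± 0.38 and passed the threshold. The interaction was 0.14 ± 0.59, whose 95% interval is too wide to show that both genotypes responded alike.

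The lipase-related gene lips-13 had 0.917, 1.23 and 0.815 CPM with DMSO and 2.63, 2.69 and 3.15 CPM with serotonin (log2 fold change 1.5 ± 0.35, SE), and rose in the paired fit. In N2 it fell by 1.35, and the interaction was 2.85 ± 0.51 (adjusted p from edgeR 0.00441). Its mutant and N2 responses thus had opposite signs.

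The 12 higher candidates also held snrp-200, hrp-1 and C44E4.4. The splicing helicase gene snrp-200 had 219, 319 and 311 CPM with DMSO and 499, 449 and 409 CPM with serotonin, and hrp-1, for a homologue of the RNA-binding protein hnRNP A1, had 410, 481 and 505 against 648, 595 and 628 CPM. C44E4.4, a homologue of the La RNA-binding protein, had 501, 559 and 499 against 667, 695 and 675 CPM. None of the 3 overlapped between groups and none passed the threshold in the paired fit (adjusted p from edgeR of 0.0738, 0.0877 and 0.0761). The gene ama-1, which is not among the 12 and encodes the large subunit of RNA polymerase II, rose in the paired fit, from 150, 151 and 203 CPM to 329, 264 and 267 CPM (log2 fold change 0.78, adjusted p 0.0396).

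In the list of ribosome assembly and nucleolus genes 24 of 27 had a mutant log2 fold change above 0, against 7802 of all 16431 tested genes. The mutant median of the list was 0.09. At an unadjusted p under 0.05, 5 of the 27 were higher and 0 lower, against 2.51% and 1.4% of all genes, and 0 passed the threshold in the paired fit. The lowest p-values were those of rpoa-1, the large subunit of RNA polymerase I (0.53), xrn-2, an exonuclease (0.41), and dao-5, a nucleolar protein (0.51). The N2 log2 fold changes of these 3 genes were -0.33, -0.1 and -0.08. The whole list, however, had an N2 median of 0.1, near that of the mutant, with 5 genes raised and 2 lowered in N2. Its interaction median was -0.01, with 2 genes higher and 1 lower.

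The remaining higher candidates were C29F7.3, F22G12.5, T16G12.3, the glucuronosyltransferase gene ugt-45 and tatn-1, the tyrosine aminotransferase, with log2 fold changes of 0.52, 0.58, 0.78, 0.43 and 0.4. Each had serotonin libraries above all DMSO libraries. In the paired fit C29F7.3 and tatn-1 passed the threshold (adjusted p from edgeR of 0.0258 and 0.0489) and the other three did not. In N2 T16G12.3, ugt-45 and tatn-1 rose as well.

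The 12 lower candidates held 3 genes of very low level. The saposin-like gene spp-9 had 0.729, 0.172 and 1.01 CPM with DMSO and 0.0511, 0.0305 and 0.0 CPM with serotonin, and the neighbouring genes F35E8.7 and F35E8.6 had at most 3.23 CPM. Their highest values were in the r3 DMSO library, and they had too few reads to enter the paired fit. Among the others, F54D5.4 had 138, 112 and 156 CPM with DMSO and 85.3, 70.2 and 94.6 CPM with serotonin, a log2 fold change of -0.7 ± 0.19 (SE) and a paired adjusted p of 0.00464 by edgeR.

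The glycoprotein hormone receptor gene fshr-1, known for intestinal defence against bacteria, had 31.7, 33.7 and 25.0 CPM with DMSO and 23.3, 22.1 and 19.0 CPM with serotonin, and fell in the paired fit and in N2. The lectin gene clec-186, the peptide gene nspc-16 and F37H8.5 had log2 fold changes of -0.86, -0.82 and -0.5 and also fell in the paired fit. The remaining candidates F11E6.4, F01D5.2 and Y45F10C.4 had -0.66, -1.14 and -0.5 and did not pass there (adjusted p from edgeR of 0.132, 0.0969 and 0.064). For F01D5.2 and Y45F10C.4 the interaction passed the threshold, at -1.64 and -0.71.

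The paired calls grouped by function as follows. The genes that fell included 3 of 14 lysozymes, 4 of 136 C-type lectins, 2 of 12 aspartyl proteases, 2 of 24 saposin-like genes, 4 of 60 cytochrome P450 genes outside the cyp-35 family and 3 of 62 UDP-glucuronosyltransferases. The genes that rose included 2 of 41 antimicrobial peptides and 3 of 278 F-box adaptors. Over all genes of that fit the shares were 0.342% lower and 0.232% higher. The lists were drawn up with earlier results of these data known, so these counts are a description.

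Among the lysozymes, lys-2 had 167, 98.3 and 173 CPM with DMSO and 109, 66.7 and 94.8 CPM with serotonin, with differences of -0.62, -0.56 and -0.87 on the log2 scale within r1, r2 and r3. The gene lys-8 had 494, 358 and 576 against 278, 268 and 340 CPM, with differences of -0.83, -0.42 and -0.76. The groups of lys-2 overlapped and those of lys-8 did not, and serotonin was lower within each tag for both. In N2 neither passed the threshold, with log2 fold changes of 0.31 and -0.22. The median over all 14 lysozymes was -0.44, -0.27 and -0.4 within the 3 tags.

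For the lectins clec-50 and clec-85 the spread between tags was wider than the treatment difference. The gene clec-50 had 261, 133 and 735 CPM with DMSO and 122, 97.3 and 343 CPM with serotonin, so that the r3 serotonin library was above the r1 and r2 DMSO libraries. The gene clec-85 had 117, 78.5 and 207 against 63.3, 57.7 and 91.7 CPM. The lectins clec-65 and clec-186 also fell and clec-266 rose, from 1860, 1640 and 2060 CPM to 2730, 2280 and 2920 CPM.

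Members of other lists also fell in the paired fit. The aspartyl protease gene asp-13 had 201, 137 and 239 CPM with DMSO and 138, 99.3 and 138 CPM with serotonin, and asp-10 had 13.9, 9.95 and 15.4 against 6.84, 5.92 and 7.78 CPM. The cytochrome P450 gene cyp-13A5 had 46.1, 52.2 and 38.6 against 24.8, 24.2 and 17.7 CPM, one of the lower adjusted p-values of the paired fit (0.00208 by edgeR). The intestinal esterase gene ges-1 and the lysosomal lipase gene lipl-5 fell in the paired fit by 0.63 and 0.88 on the log2 scale. In the paired fit the collagen genes col-93, col-101 and col-124 fell too, and each had its highest DMSO value in r3 (76.9, 704 and 380 CPM).

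Beside these genes, the 5 tested intestine markers had a summed level of 1270, 1150 and 1860 CPM with DMSO and 1300, 1270 and 1400 CPM with serotonin, and a median log2 fold change of -0.04. The gene ges-1 was the only 1 of the 5 that fell in the paired fit, and 0 were at a count of 0. The part of intestinal content in the lower digestive genes was not tested. The summed level of the 4 epidermis markers overlapped as well, at 216, 170 and 380 CPM against 205, 180 and 297 CPM.

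The F-box adaptor genes that rose in the paired fit were fbxb-18, fbxb-24 and fbxb-26, relatives that may share reads. The gene fbxb-26 had 3.1, 2.78 and 6.42 CPM with DMSO and 5.26, 5.22 and 11.1 CPM with serotonin, and differences of 0.75, 0.9 and 0.78 on the log2 scale within the tags. Both fbxb-24 and fbxb-26 rose in N2 too, by 0.92 and 0.81. Other genes that rose in the paired fit were gst-24, a glutathione S-transferase (0.43), osm-9, a sensory TRPV channel (1.0), and F35E12.5, an infection response gene (1.04).

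Sperm genes had the lowest median of any list in the mutant, at -0.51 over 69 genes, with tag medians of -0.71, -0.17 and -0.26. Levels were low. Of all 90 genes of the list, tested or not, 12, 13 and 17 had 0 reads in the DMSO libraries. In the serotonin libraries 32, 29 and 18 of the 90 did. Of the 69 tested genes 15 lay wholly below the DMSO libraries and 1 wholly above, where 4.98% and 5.31% of all genes did. At an unadjusted p under 0.05, 6 of the 69 were lower and 1 higher, against 1.4% and 2.51% of all genes. The summed level of all 90 genes was 186, 182 and 193 CPM against 174, 183 and 173 CPM, which overlap. Of 30 sperm genes with enough reads for the paired fit, 1 fell (msp-40, from 0.89, 0.369 and 1.08 to 0.0766, 0.0611 and 0.217 CPM). Major sperm protein genes are near-identical copies whose shared reads may be counted on any of them, so single members are uncertain.

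Of the 36 genes that rose in the paired fit, 9 also rose in N2 and 5 fell there, where 20.4% of all genes rose and 16.8% fell. Of the 53 that fell, 11 also fell in N2 and 6 rose, so the same-direction counts lay near these background shares. The interaction passed the threshold for 10 of the 36 and for 10 of the 53, against 15.6% of all genes. The paired and N2 fits share no library. The serotonin and DMSO libraries did not overlap for 30 of the 36 and for 25 of the 53, and across all genes the serotonin libraries lay wholly above for 873 (5.31%) and wholly below for 818 (4.98%). The paired fit chose the 36 and the 53 genes from the same libraries, which favours separation. These counts are therefore no support for its calls.

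**Figure D5:**
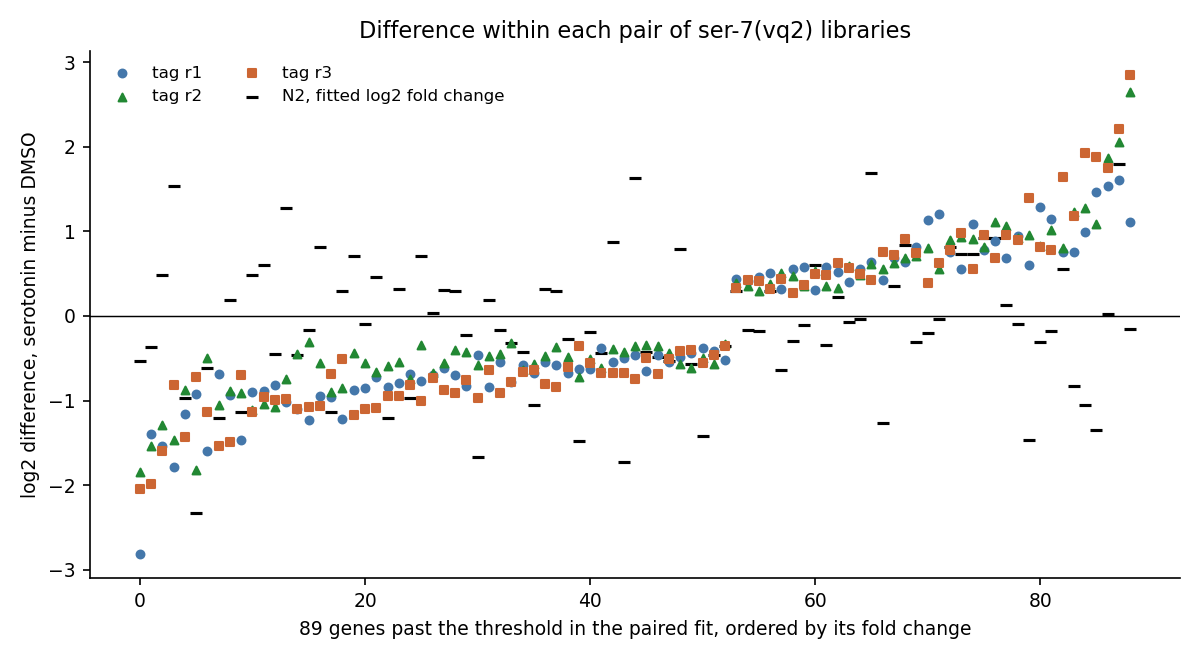
Log2 difference (serotonin minus DMSO) within each of the 3 batch tags of ser-7(vq2) for the 89 genes past the threshold in the paired fit, ordered by its fold change, with the N2 log2 fold change as a black dash. The 53 genes on the left were lower and the 36 on the right higher with serotonin in all 3 tags, while the N2 dashes fall on both sides of 0. The genes were chosen by a fit to the same mutant libraries, which favours a shared direction in the 3 tags.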

How the data were processed

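RNA of whole animals was sequenced as single 100-nucleotide reads, per the labels' protocols. Raw read counts, deposited by the authors, form 1 table of genes by 22 libraries in 7 groups, and the unit is read from its whole-number values. The aligner, counting tool, strand setting and genome build were not found in the labels or the file header, so how reads shared by near-identical genes (msp, fbxb and lectin families) or by overlapping antisense genes were counted is unknown. All 19598 identifiers are protein coding in Ensembl release 115 (WBcel235), which gave the coordinates, and 11 symbols that had turned into dates were replaced. No sequence is printed.

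Groups were taken from the titles. Genes were tested with edgeR 4.0.16 (R 4.3.3; TMM scaling, robust quasi-likelihood fit over all 22 libraries, Benjamini-Hochberg adjustment, threshold 0.05) after a filter on low counts (minimum count 10, minimum total 15). Levels are CPM with TMM-scaled totals, and tag differences use log2 CPM with a prior count of 2. SE is the log2 fold change divided by the square root of F. DESeq2 1.42.0 was an alternative. The scripts were tested on simulated data.

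The labels' batch tag pairs the libraries. Deviations from the group mean correlated by 0.142, 0.349 and 0.483 between same-tag libraries and by -0.405 to 0.118 between others. Deviations within a group sum to 0, so part of this contrast is built in. For r1 the value of 0.142 was near the 0.118 of r1 serotonin with r2 DMSO. The tag was used as a block in a second fit.

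The 65 gene lists, the tests and the comparison itself were chosen with earlier results of these data known. Named genes were the 12 higher and 12 lower genes with the smallest p-values (none passed the threshold), 21 genes of serotonin and fat metabolism, the 8 most positive and 8 most negative called interactions among genes whose log2 CPM averaged 2 or more, and 1 or 2 examples a list. The examples, the genes of the paired fit and the ribosome assembly genes named were chosen after their values were seen.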

Additional observations from a re-analysis of the deposited data

Results flagged for a closer look

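For 2565 genes the response of ser-7(vq2) differed from that of N2 by the interaction test of edgeR, and the values below are interaction log2 fold changes (mutant minus N2) of the genes named by rule or as list examples, not of all genes past the threshold. Among these named genes the values above 3 were those of F48C1.9 (4.46), ilys-3 (4.26), lips-11 (4.0), pqn-71 (3.67), Y60C6A.1 (3.57), Y60C6A.2 (3.43), ilys-2 (3.4), phat-5 (3.34) and cyp-33B1 (3.12). Y60C6A.1 and Y60C6A.2 are neighbours that may share reads. The call of lips-11 ended without any of 10 single libraries (adjusted p from 0.0527 to 0.0966).

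Among the named genes the values under -1.5 were those of asp-12 (-3.59), clec-57 (-2.77), pgp-1 (-2.5), dod-24 (-2.38), tbx-38 (-2.22), ilys-5 (-2.21), asp-10 (-2.2), cyp-35C1 (-1.96), asp-14 (-1.82), pcp-2 (-1.71), F01D5.2 (-1.64) and clec-85 (-1.62). Without N2 serotonin replicate 3 the calls of asp-10, clec-85, pcp-2 and ilys-5 ended (adjusted p of 0.133, 0.141, 0.0859 and 0.0631), and without N2 serotonin replicate 2 that of asp-14 (0.0835). The calls of asp-10, clec-85, pcp-2 and asp-14 also ended without other single libraries, 7, 8, 3 and 4 in all. With the tag as a block in the compared groups pgp-1 had an adjusted p of 0.0701.

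Germline and proteasome genes had cpg-3 at -1.45, zim-2 at -1.04, gld-3 at -0.99, him-8 at -0.98, mut-2 at -0.97, oma-2 at -0.95, rme-2 at -0.89, the DNA polymerase theta gene polq-1 at -0.89, the B cyclin gene cyb-2.2 at -0.82, the crosslink repair nuclease gene fan-1 at -0.8, the centrosome gene spd-2 at -0.76 and the proteasome ATPase gene rpt-1 at -0.63. The F-box gene fbxc-32 was at -1.27 and Y45F10C.4 at -0.71. The calls of rme-2 and rpt-1 ended without N2 serotonin replicate 3 (adjusted p of 0.0507 and 0.0556). Near-identical copies of cyb-2.2 and tbx-38 make both uncertain.

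Muscle and neuron genes had myo-2 at 1.99, phat-2 at 1.76, nlp-2 at 1.61, cha-1 at 1.28, eat-4 at 1.18, nlp-14 at 0.98, flp-10 at 0.96, the pharyngeal troponin I gene tni-4 at 0.93, flp-16 at 0.92, mup-2 at 0.91, unc-87 at 0.82 and sbt-1 at 0.62. The calls of cha-1 and eat-4 ended without single libraries (adjusted p up to 0.0596 and 0.0701).

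Secreted, surface and lipid genes had lips-13 at 2.85, far-4 at 2.41, col-74 at 2.24, cnc-2 at 1.95, cnc-7 at 1.85, ttr-17 at 1.68, clec-5 at 1.62, lips-15 at 1.54, ttr-34 at 1.25, far-6 at 1.17, lbp-2 at 0.98, lbp-3 at 0.96, fat-5 at 0.96, pod-2 at 0.68 and fasn-1 at 0.61. Among the genes with small p-values in the mutant, snrp-200 was at 0.79, C29F7.3 at 0.59 and C44E4.4 at 0.45. The call of C29F7.3 ended without ser-7(vq2) serotonin replicate 3 (0.0519). Without any of 3, 3 and 4 single libraries those of pod-2, snrp-200 and C44E4.4 ended (highest adjusted p of 0.0664, 0.064 and 0.0619).

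In 4 genes 1 N2 DMSO library lay far above the other four, at 0.911 CPM for spp-9, 0.706 CPM for F35E8.7, 4.17 CPM for cat-1 and 8.73 CPM for col-74. Chance marks about 1 in 20 groups in this way.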

How the results depend on the processing

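The count of 0 genes in ser-7(vq2) held under DESeq2 and every unpaired edgeR alternative run, with 250 to 872 genes at an unadjusted p under 0.05 without single libraries or tags. The replicate block fitted on the 6 libraries called 89 genes, 93 with RLE size factors, 243 unfiltered and 330 with DESeq2, which share 88, 87 and 85 with the 89; without r1, r2 and r3 it called 44, 84 and 708. With the replicate block on the compared groups, which in effect drops N2 DMSO replicates 4 to 6, the interaction gave 1515 genes, of which 1294 were shared, and the calls of C29F7.3 (adjusted p 0.0812), pod-2 (0.0701), snrp-200 (0.077), C44E4.4 (0.136), asp-12 (0.0796), pgp-1 (0.0701), asp-10 (0.225) and sbt-1 (0.0517) ended. The interaction count was 490 when the N2 controls were DMSO replicates 2 and 3, 1595 when they were replicates 4 to 6, and 1583 with near-duplicate N2 controls summed. It was 584, 1459 and 841 without both mutant libraries of r1, r2 and r3, and ran from 1203 to 4490 without single libraries. Alternatives within 1.5 times of 2565 were DESeq2 (3121), RLE (2582), library totals (2300), no filter (2197), compared groups only (1713) and the replicate block over all groups (2642). No result reversed. Summing near-duplicate controls and the settings of the paired fit were chosen after seeing the data. Where a setting moved a count the cause was not tested. In the unpaired fit the 95% interval reached a median of 0.43 on either side of the mutant log2 fold change.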
